A study of Mus musculus with 36 samples.

Results

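The 2 responses of 3T3-L1 cells to an adipogenic cocktail, one in wild-type (WT) cells and one in cells labelled zfp217-/- (KO), were compared gene by gene. For each gene the change from day 0 to day 2 in KO was set against the change from day 0 to day 2 in WT, and the difference between the changes is called the interaction below. It is positive where the KO response was the higher of the 2, which includes a smaller fall, and negative where it was the lower. Genes were taken if their mean over the 12 RNA-seq libraries reached 1 FPKM (fragments for each kilobase of a gene, corrected for depth), which left 12961 of 52505 genes. Differences are on the log2(FPKM + 1) scale, where 1 unit is 2-fold for a well expressed gene and less than the true fold for a gene near 0.

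3T3-L1 is a mouse fibroblast line committed to the fat lineage. The 4 groups of 3 libraries were WT at day 0, WT at day 2, KO-labelled at day 0 and KO-labelled at day 2. Total RNA was taken in all of them. The cocktail held DEX (dexamethasone, a glucocorticoid), isobutyl-methylxanthine (IBMX, which blocks phosphodiesterases and so raises cyclic AMP), insulin and indometacin, and the labels give the same medium and cocktail text to both genotypes and both days. Whether a group's 3 libraries are separate cultures, and whether the KO cells are 1 clone, is not given, so p-values measure the spread between these libraries only, and genotype cannot be told apart from the history of a line.

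As background, dexamethasone and cyclic AMP first switch on the transcription factors C/EBP-beta and C/EBP-delta in preadipocytes. These in turn bring up PPAR-gamma and C/EBP-alpha, which hold the fat cell program in place: uptake of fatty acids, their assembly into triglyceride, the lipid droplet, secreted adipokines and a large rise of mitochondrial genes. Growth-arrested 3T3-L1 cells pass through a few rounds of division on the way, and lose the actin stress fibres and the fibrillar matrix of a fibroblast. Zfp217 is a zinc finger transcription regulator found in repressor complexes, and the series was set up around it and RNA methylation at N6 of adenosine (m6A).

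The libraries held 18073746 to 23116567 reads each, as recovered from the steps of the FPKM values. Zfp217 (ENSMUSG00000052056) was at 21.7, 21.9 and 22.3 FPKM in the WT libraries of day 0 and 14.6, 15.3 and 15.3 in those of day 2. In KO Zfp217 was at 25.2, 25.8 and 26.9 on day 0 and 21.7, 23.4 and 22.7 on day 2. Its message was thus higher, not lower, in the libraries labelled KO on both days, and KO below stands for a label that the message level of the targeted gene goes against. The WT response of Zfp217 was a larger fall than the KO response (interaction 0.32, SE 0.05, adjusted p = 1.13e-04). A value for the whole gene says nothing of a frameshift or a missing exon.

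One library stood apart. WT day 0 replicate 3 had 23 genes at least 4-fold away from both of its fellow libraries, where the other 11 libraries had 1 to 5. For mt-Rnr1, a ribosomal RNA of mitochondria, it held 264.2 FPKM beside 7.01 and 5.87 in replicates 1 and 2. KO libraries of day 0 held 379.5 to 396.4, and those of day 2 in either genotype 13.5 to 19.9. The interaction of mt-Rnr1 was -4.15 (adjusted p = 0.0232), and -5.87 (adjusted p = 6.86e-11) without that library. It was not called without replicate 1 or replicate 2 of that group, and was -3.24 without replicate 2. Hsp90aa1, a heat shock chaperone gene, was at 885.6 in it and 27.2 and 28.5 beside it, and its interaction of -2.29 (adjusted p = 0.162) became -3.94 (adjusted p = 7.96e-09). Of the 2784 genes below with responses at least 2-fold apart, 2773 were still called without this library, and the part of the ribosomal RNA in other results was not tested.

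Markers of other cell types were mostly low, with exceptions. All 8 endothelial markers (Pecam1, Cdh5 and others) were under the 1 FPKM mean, as were 6 of 9 macrophage markers, with Adgre1 at a mean of 0.00275 FPKM, 6 of 8 chondrocyte markers, 6 of 9 osteoblast markers and 8 of 9 skeletal muscle markers, with Myod1, Myog and Myf5 at 0. Those above it included Spp1 (mean 188.3 FPKM), Runx2 (20.09) and Sox9 (17.6), and the macrophage markers Cd14 (6.34) and Lyz2 (4.49). The 9 osteoblast markers summed to 556.2 to 575.7 FPKM in WT at day 0 and 26.45 to 27.8 at day 2, and in KO to 236.0 to 241.2 and then 19.5 to 20.5, and their part in other results was not tested. Over the 12 libraries this sum was mostly Spp1, which is also counted among the matrix genes below. The mesenchymal surface genes Thy1, Pdgfra and Dlk1, which mark preadipocytes, were present on day 0 in both genotypes (Thy1 at 519 ± 9.8 and 538 ± 9.37), and fat cell genes were abundant in WT at day 2. Other listed surface genes were low. Nt5e, Dpp4 and Icam1 were under the 1 FPKM mean (0.1426, 0.08102 and 0.006974), and Cd34 and Eng were close to it (1.196 and 1.145). In bulk RNA, fewer cells of a kind and less RNA per cell cannot be told apart, here and in every result below.

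The difference between the responses reached most genes. The interaction was called (adjusted p under 0.05, limma) for 9560 of 12961 genes, 73.8%, of which 5282 (40.8%) were positive and 4278 (33.0%) negative. A 2-fold minimum left 1655 positive (12.8%) and 1129 negative (8.71%), 2784 in all, and 2689 of these were also called with the same sign with a pseudocount of 0.1, and again when the recovered reads were fitted (voom). Because most genes passed, a list of genes below is read against those shares, and its count is a description. The median interaction of all genes was 0.06. Levels below are FPKM as mean ± SD over 3 libraries. Some genes reached the filter's mean of 1 FPKM over all libraries through 1 group alone and so had to differ, and their values are a description. Among the genes named here these are Cd36, G0s2, Retn, Adipoq, Gpd1, Slc2a4, Zbtb16 and Ppargc1b (through WT at day 2) and Myl9 and Sfrp2 (WT at day 0). Through KO at day 0 they are Lyz2 and the interferon-stimulated genes Ifit3, Mx1, Mx2, Oas1a, Oas2, Ifih1, Rsad2, Gbp3, Gbp7 and Ddx60. List counts below that hold any of these genes are a description too.

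The KO response was narrower than the WT response. Its standard deviation over genes was 0.784 against 1.11 in WT, and the KO response rose by 0.363 per unit of WT response, with r = 0.513 across genes, which are not independent replicates. Changes of any size were called for 80.7% of genes in WT and 72.7% in KO. Rises were called for 34.2% in WT and 33.9% in KO, and falls for 46.5% and 38.8%. Counts of members that rose or fell, in every list below, are read against these shares. At least 2-fold changes were called for 3156 genes in WT (9.28% of all genes up and 15.1% down) and for 1614 in KO (5.46% up and 6.99% down). Of these, 980 were shared, 31.1% of the WT genes and 60.7% of the KO genes, with 894 in the same direction and 86 in opposite directions. Of the 3156 genes, 2224 were called in the same direction in KO at any size.

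**Figure D1:**
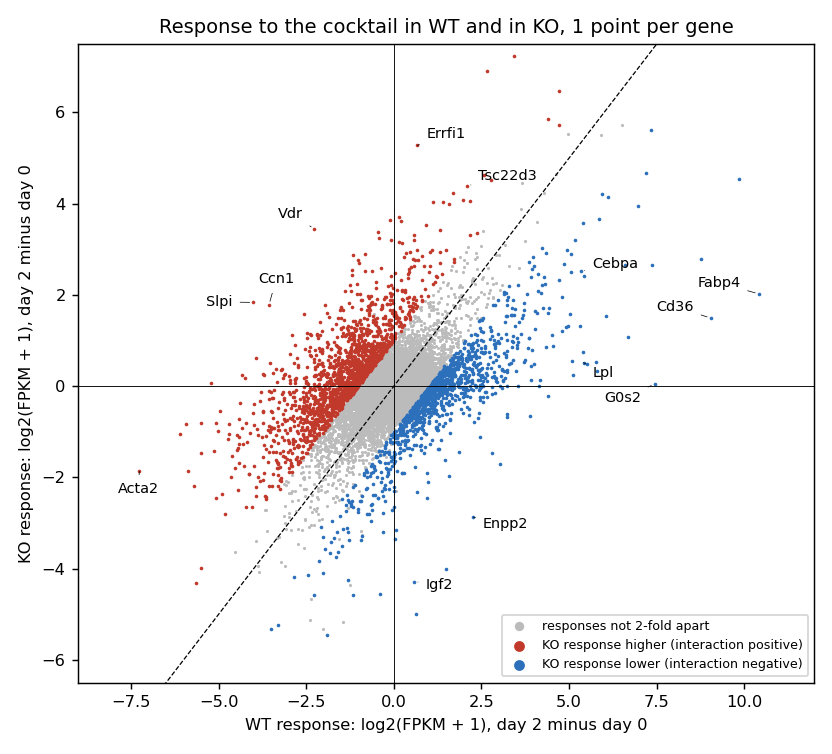
Response of each of the 12961 genes in WT (x axis) and in KO-labelled cells (y axis), both as the difference of group means of log2(FPKM + 1), day 2 minus day 0. Red and blue points are the 1655 and 1129 genes with a called interaction of at least 2-fold, grey points the others, and the dashed line marks equal responses. The cloud is wider along the WT axis, and Fabp4 and Cd36 lie far to the right while Vdr and Errfi1 lie high.

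The 2784 genes fell into kinds by what each response did. The largest were 867 genes that fell at least 2-fold in WT and not in KO (median WT response -1.72, KO -0.10) and 597 that rose in WT and not in KO (1.65 and 0.12). The reverse was rarer, with 215 genes that rose in KO alone and 158 that fell in KO alone. Here alone means that the other response was no called 2-fold change, though it could be called at a smaller size. Errfi1, which rose in KO alone in this sense, also rose by 0.67 in WT. Another 103 rose in both with the larger rise in WT, 33 with the larger rise in KO, 150 fell in both with the larger fall in WT and 40 with the larger fall in KO. Opposite 2-fold changes were called for 12 genes that rose in WT and fell in KO, and for 74 that fell in WT and rose in KO. In 535 genes neither response alone reached 2-fold. The kinds of opposite change and of larger fall depend on the scale: with a pseudocount of 0.1 they held 30, 141 and, for falls in both with the larger fall in WT, 285 genes. Of the 40 genes with the larger fall in KO, only 15 kept a called interaction of the same sign with that pseudocount and with voom. So did 125 of the 158 that fell in KO alone, and 149 of the 150 with the larger fall in WT.

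**Figure D2:**
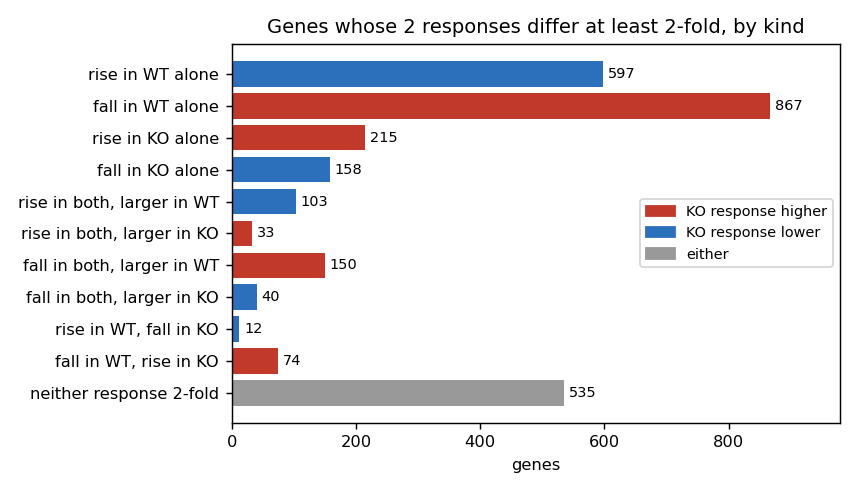
Number of genes (x axis) in each kind of unlike response, for the 2784 genes with a called interaction of at least 2-fold. Red bars are kinds with the higher KO response, blue bars kinds with the lower, and the grey bar the 535 genes where neither response reached 2-fold. Changes of at least 2-fold in WT alone (867 falls and 597 rises) outnumber those in KO alone (158 and 215).

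Unlike responses moved the genotypes both apart and together. KO and WT differed for 82.4% of all genes at day 0 and for 81.4% at day 2. Of the 2784 genes, 1175 (42.2%) differed between the genotypes on both days but in opposite directions, so that their order turned over. Another 543 (19.5%) differed on both days and lay farther apart at day 2, and 532 (19.1%) lay closer. Only at day 2 did 296 (10.6%) differ, and only at day 0 did 233 (8.37%). These kinds restate the same 4 group means and are no second test.

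Fat cell regulators differed in sign from one to the next. Of 21 adipogenic transcription factors tested, of 22 listed, the interaction was positive for 9 and negative for 10 of 21, and 18 rose in WT and 12 in KO, against 34.2% and 33.9% of all genes called up. The median interaction was -0.11, with -0.17 after TPM scaling, -0.19 after quantile normalization and 0.23 over those with a mean of at least 5 FPKM. Cebpd (C/EBP-delta), an early factor, was at 22.5, 18.9 and 21.2 FPKM in the WT libraries of day 0 and 56.7, 58.5 and 56.2 in those of day 2. In KO Cebpd was at 12.2, 12.7 and 12.6 on day 0 and 237, 214 and 215 on day 2. It rose in both, and the KO-labelled libraries started lower and ended higher with no overlap on either day (interaction 2.63, SE 0.08, adjusted p = 4.19e-11). Its partner Cebpb went from 51.7 ± 1.92 to 262 ± 12.3 FPKM in WT and from 36.1 ± 1.56 to 257 ± 28.7 in KO, a smaller difference (interaction 0.47, SE 0.10, adjusted p = 7.72e-04), and the day 2 libraries of the 2 genotypes overlapped. Klf5, a zinc finger factor that acts early in fat cell formation, went from 5.03 ± 0.521 to 18.4 ± 0.22 FPKM in WT and from 0.729 ± 0.0702 to 31.7 ± 0.227 in KO (interaction 2.55, SE 0.08, adjusted p = 7.24e-11).

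Cebpa (C/EBP-alpha), a late factor, went the other way. It was at 3.44, 3.81 and 3.64 FPKM in the WT libraries of day 0 and 180.3, 192 and 186 in those of day 2. In KO Cebpa was at 4.99, 4.72 and 4.12 on day 0 and 32.5, 30.3 and 30.5 on day 2. Both responses were rises, with the WT libraries far above at day 2 (interaction -2.82, SE 0.08, adjusted p = 2.44e-11). Pparg (PPAR-gamma) was at 9.68, 10.6 and 10.4 FPKM in the WT libraries of day 0 and 154, 146 and 150.4 in those of day 2. In KO Pparg was at 3.41, 2.91 and 2.22 on day 0 and 34.7, 33.6 and 32.7 on day 2. KO was lower on both days without overlap, and the responses themselves were close: the WT response was 3.75 and the KO response 3.18 (interaction -0.57, SE 0.12, adjusted p = 0.00129). That difference was not called with a pseudocount of 0.1 (-0.33, adjusted p = 0.0823), nor when reads were fitted (-0.29, adjusted p = 0.0864). Nr1h3, which encodes the oxysterol receptor LXR-alpha, went from 2.76 ± 0.0854 to 26.5 ± 0.504 FPKM in WT and from 3.14 ± 0.14 to 3.85 ± 0.783 in KO (interaction -2.65). Ppargc1b, a coactivator of mitochondrial genes, went from 1.55 ± 0.2 to 36.2 ± 1.78 FPKM in WT and from 0.356 ± 0.0643 to 1.86 ± 0.416 in KO (interaction -2.80).

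Genes that restrain fat cell formation leaned positive, with a positive interaction in 12 and a negative one in 3 of 19 and a median interaction of 0.76. Sox9, a factor of cartilage and progenitor cells, went from 26.5 ± 1.22 to 4.9 ± 0.188 FPKM in WT and from 14.8 ± 0.889 to 24.3 ± 0.396 in KO (interaction 2.90, SE 0.07, adjusted p = 4.79e-12). The nuclear receptor gene Nr2f2 went from 73.3 ± 2.52 to 18.9 ± 0.749 FPKM in WT and from 29.4 ± 0.169 to 58.4 ± 1.88 in KO (interaction 2.87, SE 0.05, adjusted p = 5.02e-13). Ddit3 (CHOP), which can block C/EBP factors, was an exception at -1.75, going from 114 ± 0.811 to 227 ± 4.06 FPKM in WT and from 188 ± 7.25 to 110.3 ± 3.84 in KO. For Runx2, Foxo1 and Tcf7l2 the interaction was not called, at 0.05, -0.08 and -0.08.

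Fabp4, Cd36 and G0s2 had the 3 most negative interactions outside predicted genes. Fabp4, the fatty acid carrier of fat cells, was at 1.32, 1.16 and 1.06 FPKM in the WT libraries of day 0 and 3066, 2927 and 2931 in those of day 2. In KO Fabp4 was at 3.56, 1.07 and 1.25 on day 0 and 9.85, 10.5 and 10.5 on day 2. Day 2 separated the genotypes by far while day 0 did not, and KO day 0 replicate 1 was high within its group (interaction -8.39, SE 0.31, adjusted p = 2.76e-10, between -8.60 and -8.03 with any 1 library left out). Cd36, a fatty acid receptor, was at 0.241, 0.233 and 0.187 FPKM in the WT libraries of day 0 and 643, 629 and 648 in those of day 2. In KO Cd36 was at 0.595, 0.259 and 0.32 on day 0 and 3.15, 2.63 and 2.94 on day 2. All WT day 2 libraries lay far above the others (interaction -7.54, SE 0.11). Cd36, part of the uptake count below, reached the 1 FPKM mean through those libraries alone. Lpl, the lipoprotein lipase that frees fatty acids from blood lipids, was at 53.5, 55.96 and 58.1 FPKM in the WT libraries of day 0 and 2423, 2404 and 2428 in those of day 2. In KO Lpl was at 195, 188 and 188 on day 0 and 266, 279 and 274 on day 2. KO started above WT and ended far below it (interaction -4.90, SE 0.04, adjusted p = 6.13e-15). Of 12 tested genes of fatty acid uptake and carriage, of 13 listed, the interaction was positive for 3 and negative for 8 of 12 (median -1.36), and the positive ones were the acyl-CoA synthetase genes Acsl3, Acsl4 and Acsl5. Acsl1, the synthetase of fat cells, went from 19.1 ± 0.791 to 2512 ± 14.8 FPKM in WT and from 12.6 ± 0.567 to 209 ± 5.96 in KO (interaction -3.02, SE 0.05, adjusted p = 3.98e-13).

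Lipid droplet genes had a positive interaction in 1 and a negative one in 9 of 12, of 16 listed (median -1.93, WT response 4.27, KO response 1.63). G0s2, counted here, reached the 1 FPKM mean through WT at day 2 alone. Plin1, the coat protein of the fat cell droplet, was at 0.29, 0.169 and 0.13 FPKM in the WT libraries of day 0 and 526, 524 and 515 in those of day 2. In KO Plin1 was at 0.268, 0.322 and 0.196 on day 0 and 7.45, 7.6 and 7.96 on day 2. KO rose as well, but to a far lower level (interaction -5.99, SE 0.08, adjusted p = 7.40e-14). G0s2, an inhibitor of the lipase ATGL, went from 0.0364 ± 0.0316 to 179 ± 0.546 FPKM in WT and from 0.0748 ± 0.028 to 0.11 ± 0.05 in KO, and its KO libraries of day 0 and day 2 overlapped (interaction -7.39, SE 0.08). Cidec, which fuses droplets, went from 0.659 ± 0.168 to 1521 ± 29.8 FPKM in WT and from 0.905 ± 0.705 to 41.5 ± 2.17 in KO (interaction -5.30, SE 0.27, adjusted p = 4.52e-09). The hormone-sensitive lipase gene Lipe went from 4.09 ± 0.072 to 340.2 ± 7.04 FPKM in WT and from 9.5 ± 0.529 to 29.7 ± 0.943 in KO (interaction -4.52, SE 0.05, adjusted p = 3.89e-14). Plin3, a coat protein of many cell types, was the positive member at 0.77. The ubiquitous droplet genes Bscl2 and Hilpda were not called (0.11 and 0.25).

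Triglyceride assembly genes had a positive interaction in 2 and a negative one in 10 of 15, of 17 listed (median -2.05). Dgat2, which adds the last fatty acid, went from 7.44 ± 0.411 to 814 ± 16.2 FPKM in WT and from 4.42 ± 0.502 to 33.01 ± 1.89 in KO (interaction -3.94, SE 0.09, adjusted p = 3.73e-12). Gpd1, which makes glycerol phosphate, went from 0.657 ± 0.0648 to 33.96 ± 0.0357 FPKM in WT and from 1.07 ± 0.154 to 0.773 ± 0.0925 in KO (interaction -4.62, SE 0.10). Agpat4, an acyltransferase gene, was the clear exception and went from 29.6 ± 0.843 to 43.7 ± 1.42 FPKM in WT and from 31.6 ± 0.736 to 121 ± 1.51 in KO (interaction 1.36, SE 0.04, adjusted p = 6.49e-11). Among 9 tested adipokine and secreted product genes, of 15 listed, the interaction was positive for 2 and negative for 7 of 9. Adipoq and Retn, counted here, reached the 1 FPKM mean through WT at day 2 alone, as did Gpd1 in the count before. Adipoq (adiponectin) was at 0, 0.0532 and 0.103 FPKM in the WT libraries of day 0 and 46.8, 48.05 and 46.5 in those of day 2. In KO Adipoq was at 0.121, 0.0508 and 0 on day 0 and 0.536, 0.459 and 0.422 on day 2. Thus only WT libraries of day 2 held more than 1 FPKM (interaction -5.04, SE 0.10). Retn (resistin) was listed at 0 in WT at day 0 and went to 102 ± 3.37 there, against 0.0982 ± 0.0929 and 1.32 ± 0.196 in KO-labelled libraries (interaction -5.61).

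**Figure D3:**
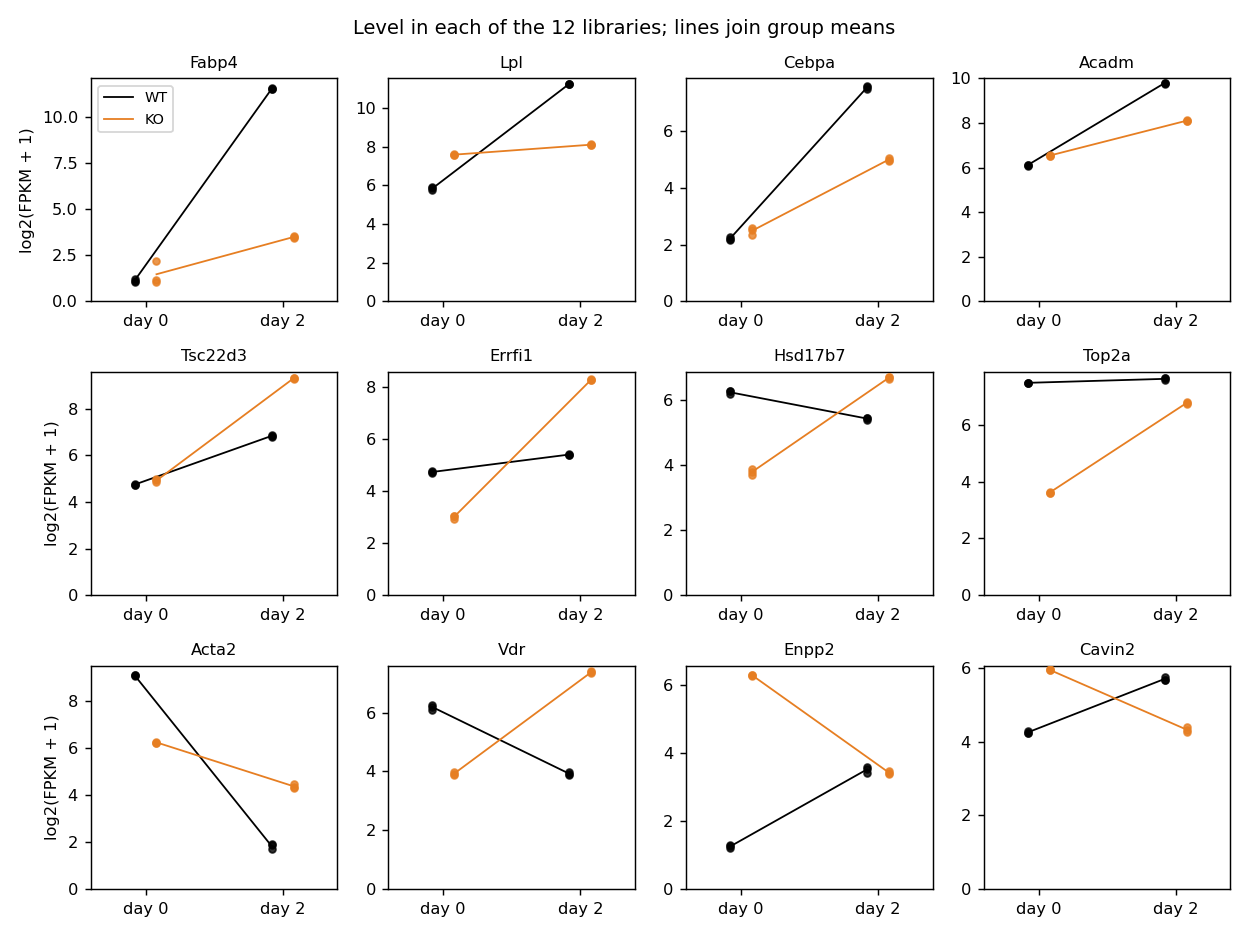
Level of 12 genes in log2(FPKM + 1) (y axis) in each of the 12 libraries at day 0 and day 2 (x axis), WT in black and KO-labelled in orange, with lines between group means. Fabp4, Lpl, Cebpa and Acadm rose more in WT, Tsc22d3, Errfi1 and Top2a rose more in KO, Acta2 fell more in WT, and the lines of Hsd17b7, Vdr, Enpp2 and Cavin2 run in opposite directions.

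Nuclear genes that encode mitochondrial proteins mostly rose more in WT than in KO. All 24 citrate cycle and pyruvate entry genes had a negative interaction (median -1.18). All 24 rose in WT, and in KO 16 rose and 3 fell. Idh3a, a subunit of isocitrate dehydrogenase, was at 37.2, 39.2 and 38.6 FPKM in the WT libraries of day 0 and 484, 482 and 479.9 in those of day 2. In KO Idh3a was at 20.9, 20.1 and 18.5 on day 0 and 46.2, 45.9 and 43.8 on day 2. WT was the higher on both days, and far more so at day 2 (interaction -2.46, SE 0.05, adjusted p = 3.36e-12). Sdha of succinate dehydrogenase went from 305 ± 2.11 to 646 ± 2.34 FPKM in WT and from 307 ± 2.18 to 295 ± 6 in KO (interaction -1.14, SE 0.03, adjusted p = 4.73e-12). Of 31 respiratory chain genes, 29 were negative and 0 positive (median -0.82). All 31 rose in WT and 23 in KO. The complex III core gene Uqcrc2 went from 102 ± 2.42 to 303 ± 3.34 FPKM in WT and from 76.1 ± 1.64 to 83.4 ± 0.878 in KO (interaction -1.43, SE 0.03, adjusted p = 4.48e-12), and Ndufa1 and Cox5a were not called (-0.03 and -0.21).

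Breakdown of fatty acids and of branched-chain amino acids followed the same direction. Fatty acid oxidation genes had a positive interaction in 1 and a negative one in 18 of 19, of 21 listed (median -1.41). Acadm, the medium-chain acyl-CoA dehydrogenase, was at 67.8, 69.1 and 67.2 FPKM in the WT libraries of day 0 and 899.7, 874 and 888 in those of day 2. In KO Acadm was at 93.8, 90.9 and 91.1 on day 0 and 270.5, 277 and 276 on day 2. The order of the genotypes again turned over (interaction -2.12, SE 0.03, adjusted p = 9.55e-14). Hadha, of the trifunctional enzyme, went from 88.2 ± 1.72 to 279 ± 5.34 FPKM in WT and from 78.2 ± 0.0362 to 89.5 ± 1.76 in KO (interaction -1.46, SE 0.03, adjusted p = 3.16e-12). Cpt1a, which carries fatty acids into mitochondria in many tissues, was the positive member at 0.14, a value not called after TPM, median-of-ratios or quantile scaling (0.08, 0.10 and 0.03). Branched-chain amino acid genes had a positive interaction in 1 and a negative one in 16 of 17 (median -1.14), and the first step split by isoform. The mitochondrial aminotransferase Bcat2 went from 19.4 ± 0.893 to 186 ± 1.68 FPKM in WT and from 28.5 ± 0.82 to 64.02 ± 0.868 in KO (interaction -2.05, SE 0.05, adjusted p = 3.38e-12). The cytosolic Bcat1 went from 135 ± 3.39 to 6.87 ± 0.443 FPKM in WT and from 32.2 ± 1.51 to 15.3 ± 0.223 in KO (interaction 3.09, SE 0.06, adjusted p = 1.76e-12). Mitochondrial ribosomal protein genes had a positive interaction in 0 and a negative one in 24 of 25 (median -0.59).

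Cytosolic ribosomal protein genes went against their mitochondrial counterparts, with 29 positive and 0 negative of 30 (median 0.73). In WT 22 of the 30 fell, and in KO 29 rose. Rplp0, of the ribosomal stalk, went from 2977 ± 54.2 to 2395 ± 17.3 FPKM in WT and from 1854 ± 25.1 to 3126 ± 72.9 in KO (interaction 1.07, SE 0.03, adjusted p = 7.66e-11). The median was 0.41 after quantile normalization, with 25 positive and 1 negative.

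Insulin signalling and glucose uptake genes had a positive interaction in 4 and a negative one in 11 of 17 (median -0.88). Slc2a4, the insulin-regulated glucose carrier GLUT4, was at 0, 0.0363 and 0 FPKM in the WT libraries of day 0 and 17.03, 17.1 and 17.1 in those of day 2. In KO Slc2a4 was at 0, 0.0347 and 0 on day 0 and 0.133, 0.117 and 0.072 on day 2. Only WT at day 2 stood above 1 FPKM (interaction -4.03, SE 0.09), so the part of Slc2a4 in the list's count was set by the filter. The insulin receptor gene Insr went from 16.04 ± 0.471 to 50.4 ± 1.63 FPKM in WT and from 31.4 ± 0.757 to 30.03 ± 0.796 in KO (interaction -1.66, SE 0.05, adjusted p = 3.03e-11). Akt2, the kinase through which insulin moves GLUT4, went from 95.2 ± 1.24 to 297 ± 5.91 FPKM in WT and from 150.0 ± 5.74 to 99.3 ± 1.7 in KO (interaction -2.22, SE 0.04, adjusted p = 6.90e-13). Grb14, an adaptor that inhibits the insulin receptor, was positive at 1.62. Glycolysis genes were mixed, with a positive interaction in 9 and a negative one in 5 of 16. Isoforms parted here too, since the hexokinase gene Hk1 had 2.12 and Hk2 -0.60, and the phosphofructokinase genes Pfkp, Pfkm and Pfkl had 2.39, -0.73 and 0.07, the last not called.

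Cholesterol synthesis and uptake genes mostly fell in WT and rose in KO. Of 24 tested, of 25 listed, 22 had a positive and 1 a negative interaction (median 1.55, WT response -0.91, KO response 0.84). In WT 17 fell and 4 rose, and in KO 23 rose and 0 fell. Hsd17b7, a reductase late in the pathway, was at 71.2, 75.9 and 75.5 FPKM in the WT libraries of day 0 and 40.6, 42.9 and 42.3 in those of day 2. In KO Hsd17b7 was at 11.9, 12.8 and 13.6 on day 0 and 103, 102 and 99.1 on day 2. WT fell and KO rose, so that KO lay far below WT at day 0 and above it at day 2 (interaction 3.71, SE 0.06, adjusted p = 3.33e-13). The list as a whole stayed lower in KO at day 2, with a median difference between KO and WT of -0.66. Its listed genes then summed to 2367 to 2505 FPKM in WT and 1009 to 1025 in KO. Srebf2, whose product switches the pathway on, went from 72.9 ± 0.573 to 33.8 ± 0.494 FPKM in WT and from 43.6 ± 0.669 to 57.5 ± 0.725 in KO (interaction 1.48, SE 0.03, adjusted p = 2.01e-12). Cyp51 had the list's negative interaction and rose in both, from 114 ± 1.36 to 534 ± 5.89 FPKM in WT and from 19.4 ± 1.79 to 71.1 ± 2.21 in KO (interaction -0.40, SE 0.07, adjusted p = 2.87e-04).

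The sterol response element was looked for in promoters of the cholesterol genes. RefSeq promoters (GRCm38.p6, 250 bases before to 50 after each start, both strands) matched 9060 of the 12961 genes, and 17 of the 24 cholesterol genes. The element TCACNCCAC was in 1.3% of all genes with a promoter and in 1 of the 17 cholesterol genes. That gene was Hmgcs1, whose 250 bases before the start are shown with the match in capitals (chr13:119690101-119690350, plus strand, GRCm38.p6).
Hmgcs1: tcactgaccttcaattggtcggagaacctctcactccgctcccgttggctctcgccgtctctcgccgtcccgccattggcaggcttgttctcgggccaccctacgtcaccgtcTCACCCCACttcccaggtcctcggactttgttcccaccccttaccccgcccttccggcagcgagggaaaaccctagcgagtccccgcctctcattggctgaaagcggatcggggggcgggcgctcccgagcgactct
The shorter motif CCAAT, bound by NF-Y, a factor that works beside SREBP, was in 94.1% of the cholesterol genes and in 43.7% of all. Lists with a negative median interaction lay on both sides of that share. It was in 77.8% of fatty acid uptake genes, 75.0% of ATF4 and unfolded protein response genes and 33.3% of lipid droplet genes. Hmgcs1, a synthase early in the pathway, went from 196 ± 1.84 to 322 ± 3.84 FPKM in WT and from 32.03 ± 0.0329 to 71.2 ± 2.35 in KO (interaction 0.42, SE 0.03, adjusted p = 3.33e-07). A match is a run of letters and no measured site.

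Fatty acid synthesis genes showed no shared direction, with a positive interaction in 10 and a negative one in 6 of 17 (median 0.12). The count was 7 and 6 after TPM scaling (median 0.06) and after median-of-ratios scaling (0.08), and 10 and 3 at a mean of at least 5 FPKM (0.33). The elongase gene Elovl6 went from 57.7 ± 2.82 to 7.75 ± 0.407 FPKM in WT and from 10.4 ± 0.599 to 14.3 ± 0.66 in KO (interaction 3.18, SE 0.08, adjusted p = 6.20e-12). Acly, which makes cytosolic acetyl-CoA, went from 219.5 ± 3.11 to 114 ± 0.354 FPKM in WT and from 92.1 ± 1.02 to 112 ± 1.86 in KO (interaction 1.23, SE 0.03, adjusted p = 3.84e-12). The desaturase gene Scd1 went from 50.6 ± 0.343 to 541 ± 4.12 FPKM in WT and from 14 ± 0.239 to 54.2 ± 0.732 in KO (interaction -1.51, SE 0.03, adjusted p = 1.02e-12). Fasn, the fatty acid synthase, rose in both, from 202 ± 1.05 to 736 ± 18.9 FPKM in WT and from 86.5 ± 2.7 to 338 ± 8.11 in KO. Its interaction was small, though called, at 0.10.

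Cell division genes shared the sign of the interaction. All 26 mitotic genes had a positive interaction of at least 2-fold, from 1.27 to 3.09 (median 2.30). In WT 25 fell and 1 rose, and in KO all 26 rose. Top2a, the topoisomerase that untangles chromosomes, was at 177, 179 and 178 FPKM in the WT libraries of day 0 and 188, 199.9 and 200.3 in those of day 2. In KO Top2a was at 11.3, 11.2 and 11.1 on day 0 and 110.3, 108 and 106 on day 2. WT rose slightly, and KO rose further from a far lower level and stayed below WT (interaction 3.02, SE 0.04, adjusted p = 4.00e-14). Ccnb1, the cyclin of mitotic entry, was at 86.4, 89.4 and 89.1 FPKM in the WT libraries of day 0 and 53.2, 54.2 and 54.3 in those of day 2. In KO Ccnb1 was at 2.71, 2.71 and 2.75 on day 0 and 13.2, 12.8 and 13.6 on day 2. WT fell, KO rose, and KO stayed the lower on both days (interaction 2.63, SE 0.04, adjusted p = 2.40e-13). Tpx2, a spindle factor, went from 102 ± 0.916 to 48.8 ± 0.384 FPKM in WT and from 6.02 ± 0.0591 to 27.4 ± 0.00226 in KO (interaction 3.07, SE 0.03, adjusted p = 1.35e-14). Kif23, a motor of the last step of division, went from 57.9 ± 1.61 to 10.2 ± 0.709 FPKM in WT and from 3.12 ± 0.482 to 5.63 ± 0.0319 in KO (interaction 3.09, SE 0.11, adjusted p = 1.39e-10).

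A pair of motifs was looked for in mitotic promoters, and the Top2a promoter, which holds both, is shown. TTTGAA, the core of the cell cycle homology region bound by the DREAM complex, was in 76.2% of the 21 mitotic genes with a promoter and in 14% of all genes with one. CCAAT was in 90.5% and 43.7%. In the 250 bases before the Top2a start (chr11:99024190-99024439, minus strand, GRCm38.p6) capitals mark both motifs on either strand, 8 matches in all.
Top2a: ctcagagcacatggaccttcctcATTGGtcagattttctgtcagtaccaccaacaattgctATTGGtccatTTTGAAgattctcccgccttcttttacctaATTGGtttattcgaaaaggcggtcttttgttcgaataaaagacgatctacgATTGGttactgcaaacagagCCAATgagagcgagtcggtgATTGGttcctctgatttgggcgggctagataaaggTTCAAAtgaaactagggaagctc
The matches do not overlap. DNA replication genes, which moved the same way, held TTTGAA in 12% of 25 genes with a promoter, near the share of all genes.

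All 29 tested DNA replication genes, of 30 listed, were positive (median 1.32). In WT 28 fell and 1 rose, and in KO 23 rose and 3 fell. Pcna, the sliding clamp of replication, was at 425, 418 and 411 FPKM in the WT libraries of day 0 and 208, 207 and 205 in those of day 2. In KO Pcna was at 57.7, 61.2 and 62.95 on day 0 and 404, 417 and 429 on day 2. For Pcna the order of the genotypes turned over, with no overlap on either day (interaction 3.77, SE 0.04, adjusted p = 3.31e-14). The list as a whole stayed lower in KO at day 2, with a median difference between KO and WT of -0.96. Its listed genes then summed to 1004 to 1017 FPKM in WT and 731.1 to 751.1 in KO. The helicase gene Mcm5 went from 84 ± 0.962 to 30.96 ± 0.228 FPKM in WT and from 4.01 ± 0.192 to 12.7 ± 0.458 in KO (interaction 2.87, SE 0.05, adjusted p = 4.57e-13). Cdc45, its partner, rose in both (from 31.4 ± 0.788 to 47.8 ± 0.209 FPKM in WT and from 3.83 ± 0.244 to 9.34 ± 1.02 in KO, interaction 0.51). Genes of the G1 phase had a positive interaction in 15 and a negative one in 3 of 19 (median 0.85). Ccnd1, cyclin D1, went from 146 ± 2.34 to 12.5 ± 0.706 FPKM in WT and from 55.7 ± 0.594 to 28.98 ± 0.477 in KO (interaction 2.52, SE 0.05, adjusted p = 1.23e-12). Ccnd2 went from 242 ± 1.7 to 191 ± 3.42 FPKM in WT and from 192 ± 1.21 to 70.9 ± 1.62 in KO (interaction -1.08, SE 0.03, adjusted p = 2.16e-11), opposite signs for a pair of close relatives. Myc rose in both, more in KO (from 53.7 ± 0.578 to 169 ± 6.39 FPKM in WT and from 10.7 ± 0.367 to 67.4 ± 0.556 in KO, interaction 0.92).

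Cell cycle inhibitors and p53 targets had a positive interaction in 13 and a negative one in 8 of 23 (median 0.39), and in 12 and 10 after quantile normalization (median 0.19). Cdkn1a, the inhibitor p21, went from 74.5 ± 1.67 to 272 ± 3.19 FPKM in WT and from 318 ± 4.92 to 263 ± 9.35 in KO (interaction -2.13, SE 0.04, adjusted p = 7.06e-13), so that the genotypes met at day 2. Cdkn2c, the inhibitor p18, rose far more in WT, from 29.5 ± 0.679 to 190.3 ± 1.77 FPKM in WT and from 15.2 ± 0.457 to 18.2 ± 0.143 in KO (interaction -2.40, SE 0.04, adjusted p = 2.66e-13). Cdkn2b, the inhibitor p15, went from 55.1 ± 1.84 to 19.2 ± 0.445 FPKM in WT and from 70.9 ± 2.37 to 106 ± 1.35 in KO (interaction 2.05, SE 0.04, adjusted p = 3.04e-12). Eda2r, a p53 target far higher in KO, fell in both by close amounts (interaction 0.00, 95% interval -0.11 to 0.12).

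Direct targets of the cocktail responded in both genotypes, and several responded more in KO. All 16 tested glucocorticoid response genes, of 18 listed, rose in WT and all 16 in KO, and the interaction was positive for 10 and negative for 4 of 16 (median 0.65, WT response 2.00, KO response 2.69, with a median of 0.43 at a pseudocount of 0.1 or with voom). Tsc22d3 (GILZ), a classic glucocorticoid target, was at 26.3, 25.9 and 25.4 FPKM in the WT libraries of day 0 and 115, 112 and 115 in those of day 2. In KO Tsc22d3 was at 29.4, 28.3 and 30.4 on day 0 and 650.3, 622 and 638 on day 2. The genotypes were close at day 0 and KO was far above at day 2 (interaction 2.30, SE 0.04, adjusted p = 5.89e-13). Errfi1, a feedback inhibitor of the EGF receptor, was at 24.96, 26.1 and 25.9 FPKM in the WT libraries of day 0 and 40.7, 41.04 and 42.6 in those of day 2. In KO Errfi1 was at 6.67, 7.22 and 7.34 on day 0 and 312, 315 and 309 on day 2. KO was the lower at day 0 and the higher at day 2 (interaction 4.61, SE 0.05, adjusted p = 1.79e-14). Fkbp5, a chaperone of the receptor, went from 36.03 ± 0.678 to 776 ± 4.74 FPKM in WT and from 6.77 ± 0.805 to 446 ± 7.22 in KO (interaction 1.46, SE 0.08, adjusted p = 6.24e-09), so that its larger rise in KO still ended below WT. Dusp1, a phosphatase of MAP kinases, went from 21.01 ± 0.515 to 27.9 ± 1.09 FPKM in WT and from 66.7 ± 2.1 to 373 ± 3.04 in KO (interaction 2.07, SE 0.05, adjusted p = 3.04e-12). Zbtb16, a zinc finger gene, was an exception and went from 0.00426 ± 0.00738 to 13.3 ± 0.552 FPKM in WT and from 0.00484 ± 0.00838 to 0.791 ± 0.117 in KO (interaction -3.00). So were Pdk4, a brake on pyruvate entry, at -1.38, Lcn2 at -1.73 and Klf9 at -0.63. Per1, the clock gene that glucocorticoids induce, rose in both (from 6.01 ± 0.211 to 25.4 ± 0.6 FPKM in WT and from 9.14 ± 0.0643 to 39.4 ± 1.16 in KO), with an interaction of 0.08 (95% interval -0.03 to 0.19, adjusted p = 0.155). Nfkbia rose in both too, with an interaction of 0.01 (95% interval -0.11 to 0.14).

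Cyclic AMP and immediate early genes had a positive interaction in 17 and a negative one in 4 of 21 (median 1.18, WT response -0.03, KO response 1.38). In KO 15 of 21 rose and 6 fell, and in WT 10 rose and 10 fell. Of all genes, 33.9% were called up and 38.8% down in KO, and 34.2% and 46.5% in WT. Nr4a1, an orphan nuclear receptor gene, went from 8.79 ± 0.628 to 20.4 ± 0.822 FPKM in WT and from 3.32 ± 0.264 to 69.9 ± 1.64 in KO (interaction 2.91, SE 0.08, adjusted p = 1.65e-11). Jun, a subunit of AP-1, fell in WT and rose in KO, from 28.3 ± 0.397 to 11.1 ± 0.337 FPKM in WT and from 14.3 ± 0.0837 to 53.1 ± 1.11 in KO (interaction 3.10, SE 0.04, adjusted p = 7.40e-14). Fosl2, another AP-1 gene, went from 35.8 ± 0.488 to 16.3 ± 0.484 FPKM in WT and from 25.4 ± 0.529 to 60.9 ± 0.806 in KO (interaction 2.32, SE 0.04, adjusted p = 4.25e-13). The phosphodiesterase genes Pde4b and Pde4d, which break down cyclic AMP, rose in both and more in KO (1.49 and 1.13). The exceptions were Fos (-0.60), Atf3 (-0.89), Crem (-0.68) and Ppargc1a. The last, the coactivator PGC-1alpha, went from 0.88 ± 0.0919 to 6.91 ± 0.104 FPKM in WT and from 3.65 ± 0.171 to 2.38 ± 0.26 in KO (interaction -2.54, SE 0.10, adjusted p = 3.42e-10). The element TGACGTCA was in 0 of the 15 genes of the list with a promoter and in 3.7% of all.

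Actin and contractile genes fell in WT and less so, or not, in KO. All 14 tested, of 19 listed, had a positive interaction (median 2.09, WT response -2.72, KO response -0.17). All 14 fell in WT, and in KO 8 fell and 3 rose. Acta2, smooth muscle actin, was at 549, 533 and 542 FPKM in the WT libraries of day 0 and 2.67, 2.22 and 2.73 in those of day 2. In KO Acta2 was at 73.03, 73.6 and 75.4 on day 0 and 19.2, 18.8 and 20.8 on day 2. WT fell further than KO, so that the order turned over (interaction 5.40, SE 0.07, adjusted p = 9.45e-14). Cald1, which binds actin, went from 690.4 ± 9.66 to 85.2 ± 2.48 FPKM in WT and from 305 ± 2.46 to 354 ± 5.81 in KO (interaction 3.22, SE 0.03, adjusted p = 1.79e-14). Tpm4, a tropomyosin, went from 475 ± 4.41 to 68.2 ± 1.49 FPKM in WT and from 217 ± 5.05 to 205 ± 3.07 in KO (interaction 2.70, SE 0.03, adjusted p = 4.29e-14). Myl9, a myosin light chain, went from 41.3 ± 2.17 to 0.154 ± 0.138 FPKM in WT and was listed at 0 in KO at day 0 and at 0.05 ± 0.0434 at day 2, so its interaction of 5.27 is a fall in WT with nothing to fall in KO.

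YAP, TAZ and SRF are factors that read tension and actin state. A list of their targets, in which Yap1, Srf and related factor genes are counted too, had a positive interaction in 10 and a negative one in 3 of 17 (median 1.23). Ccn1 was at 160.0, 157 and 158 FPKM in the WT libraries of day 0 and 13.5, 12.2 and 11.8 in those of day 2. In KO Ccn1 was at 24, 25.01 and 22.9 on day 0 and 82.8, 83.3 and 88.9 on day 2. It fell in WT and rose in KO without overlap (interaction 5.34, SE 0.07, adjusted p = 4.88e-14). Zyx, of focal adhesions, went from 487 ± 10.4 to 53.2 ± 0.474 FPKM in WT and from 157 ± 3.29 to 178 ± 3.4 in KO (interaction 3.35, SE 0.03, adjusted p = 1.40e-14). The receptor kinase gene Axl went from 344 ± 6.42 to 50.3 ± 1.09 FPKM in WT and from 247 ± 3.9 to 379 ± 5.01 in KO (interaction 3.37, SE 0.03, adjusted p = 1.30e-14). Of the factor genes in this list Yap1 (0.07), Tead1 (0.08) and Mrtfb (0.12) were not called, while Tead2 (1.98), Srf (1.28) and Mrtfa (1.55) were.

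Surface genes of preadipocytes had a positive interaction in 11 and a negative one in 1 of 12, of 15 listed (median 1.42). Thy1 was at 528, 508 and 521 FPKM in the WT libraries of day 0 and 31.8, 32.8 and 31.4 in those of day 2. In KO Thy1 was at 534, 549 and 531 on day 0 and 291, 298 and 305 on day 2. The genotypes were close at day 0, and WT fell far below KO at day 2 (interaction 3.13, SE 0.04, adjusted p = 3.00e-14). Pdgfrb, a growth factor receptor, went from 71.4 ± 0.902 to 3.15 ± 0.103 FPKM in WT and from 103 ± 2.03 to 26.1 ± 0.658 in KO (interaction 2.19, SE 0.04, adjusted p = 9.79e-13). Dlk1, an inhibitor of fat cell formation shed by preadipocytes, went from 416 ± 10.1 to 68.7 ± 1.22 FPKM in WT and from 880.0 ± 17.8 to 301 ± 3.55 in KO (interaction 1.04, SE 0.03, adjusted p = 8.67e-11).

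Matrix genes other than collagens had a positive interaction in 25 and a negative one in 4 of 30, of 34 listed (median 1.32, WT response -2.51, KO response -0.82). Fn1, fibronectin, went from 1455 ± 26.7 to 246 ± 2.09 FPKM in WT and from 1794 ± 9.5 to 1460 ± 36.3 in KO (interaction 2.26, SE 0.03, adjusted p = 1.10e-13). The crosslinking enzyme gene Lox went from 312 ± 1.63 to 25.7 ± 0.211 FPKM in WT and from 957 ± 4.27 to 522 ± 13.1 in KO (interaction 2.68, SE 0.03, adjusted p = 2.01e-14). Ecm1 went from 119 ± 6.59 to 50.97 ± 1 FPKM in WT and from 244 ± 4.21 to 1321 ± 22.2 in KO (interaction 3.64, SE 0.05, adjusted p = 7.82e-14). Dcn, decorin, was an exception with the larger fall in KO, from 26.6 ± 1.02 to 4.03 ± 0.118 FPKM in WT and from 279 ± 8.67 to 14.9 ± 0.356 in KO (interaction -1.68, SE 0.05, adjusted p = 4.12e-11). Collagen chains had no shared direction, with a positive interaction in 6 and a negative one in 11 of 18 (median -0.48). Col1a1, of the fibrillar collagen of connective tissue, was at 3612, 3474 and 3521 FPKM in the WT libraries of day 0 and 159, 163 and 162 in those of day 2. In KO Col1a1 was at 9703, 10010 and 9521 on day 0 and 2034, 2057 and 1980 on day 2. It fell in both from a higher start in KO, and the fall in WT was the larger (interaction 2.18, SE 0.04, adjusted p = 4.27e-13). Col6a3, of the beaded filament collagen around fat cells, was at 116, 116 and 117 FPKM in the WT libraries of day 0 and 809, 832 and 829 in those of day 2. In KO Col6a3 was at 192, 192 and 189.7 on day 0 and 171, 174 and 163 on day 2. It rose in WT and fell slightly in KO (interaction -2.99, SE 0.03, adjusted p = 3.00e-14). Col6a1 and Col6a2, chains of the same collagen, had -1.28 and -1.61, and Col4a1 and Col4a2 of the basement membrane rose in both (-0.39 and -0.74).

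Of the TGF-beta and BMP pathway the interaction was positive for 17 and negative for 5 of 22 (median 0.81). Ligands parted, with Tgfb1 at 1.13, Tgfb3 at 0.85 and Tgfb2 at -2.20. Among receptors Tgfbr2 had 0.79 and Tgfbr1 -0.32. The BMP target gene Id1 went from 48.98 ± 1.09 to 92.6 ± 0.291 FPKM in WT and from 12.1 ± 0.816 to 149.5 ± 5.79 in KO (interaction 2.62, SE 0.06, adjusted p = 3.77e-12). The secreted BMP antagonist gene Grem1 fell far more in WT, from 68.3 ± 1.17 to 0.526 ± 0.0693 FPKM in WT and from 55.3 ± 0.516 to 31.1 ± 0.899 in KO (interaction 4.70, SE 0.05, adjusted p = 2.66e-14). Wnt pathway genes had a positive interaction in 7 and a negative one in 5 of 13, of 28 listed, with a median of 0.29 that is 0.06 after quantile normalization and turns to -0.13 at a mean of at least 5 FPKM. The inhibitor gene Sfrp2 went from 16.4 ± 0.668 to 0.254 ± 0.0855 FPKM in WT and from 0.137 ± 0.0875 to 0.0338 ± 0.0293 in KO (interaction 3.66). It reached the 1 FPKM mean through WT at day 0 alone. Among IGF and imprinted growth genes, with a positive interaction in 9 and a negative one in 6 of 15, Igf2, a fetal growth factor, was at 0.907, 0.974 and 0.87 FPKM in the WT libraries of day 0 and 2.06, 1.86 and 1.73 in those of day 2. In KO Igf2 was at 71.3, 73.3 and 70.7 on day 0 and 2.9, 2.62 and 2.7 on day 2. It was far highest in KO at day 0, where it then fell, and it rose slightly in WT (interaction -4.87, SE 0.08, adjusted p = 2.56e-13). Igfbp4, which binds it, went from 16.4 ± 1.14 to 162 ± 3.4 FPKM in WT and from 296 ± 8.61 to 502 ± 19.4 in KO (interaction -2.46, SE 0.06, adjusted p = 1.04e-11). The imprinted gene Ndn, a brake on fat cell formation, went from 14.2 ± 0.864 to 3.93 ± 0.194 FPKM in WT and from 195 ± 2.99 to 360.2 ± 3.3 in KO (interaction 2.50, SE 0.06, adjusted p = 4.28e-12).

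Chemokine and inflammatory genes had a positive interaction in 12 and a negative one in 4 of 17 of 27 listed (median 1.39, and 2.19 at a mean of at least 5 FPKM). Ccl7, which attracts monocytes, went from 95.5 ± 4.49 to 2.08 ± 0.166 FPKM in WT and from 68.5 ± 1.73 to 46.8 ± 2.45 in KO (interaction 4.43, SE 0.07, adjusted p = 2.66e-13). Ptgs2, the inducible prostaglandin synthase, went from 35.4 ± 2.43 to 1.6 ± 0.248 FPKM in WT and from 28.4 ± 0.298 to 22.5 ± 0.5 in KO (interaction 3.48, SE 0.09, adjusted p = 1.25e-11). Its relative Ptgs1 went from 303 ± 6.31 to 27.1 ± 2.03 FPKM in WT and from 163 ± 3.62 to 199 ± 4.35 in KO (interaction 3.72, SE 0.06, adjusted p = 3.24e-13). The complement gene C3 rose in both and less in KO, from 10.9 ± 0.13 to 727 ± 4.97 FPKM in WT and from 61.99 ± 2.16 to 1173 ± 11.7 in KO (interaction -1.72, SE 0.03, adjusted p = 1.47e-12).

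Nearly all interferon-stimulated genes fell in both genotypes, and for many of those near 0 FPKM which fall was the larger depends on the scale. Of 28 tested, of 30 listed, 26 fell in WT and 27 in KO, against 46.5% and 38.8% of all genes called down. Of these Mx1, Mx2, Oas1a, Oas2, Ifit3, Ifih1, Rsad2, Gbp3, Gbp7 and Ddx60 reached the 1 FPKM mean through KO at day 0 alone. Their fall in KO was set by that filter, so counts that hold them are a description. On log2(FPKM + 1) the interaction was positive for 4 and negative for 22 of 28 (median -1.68). With a pseudocount of 0.1 the median was -0.70, with 6 positive and 16 negative, and in the fit on reads 0.18, with 8 and 9. Group means were under 1 FPKM for 17 of the 28 in WT at day 2 and for 8 in KO at day 2, but for 4 in WT and 0 in KO at day 0. Ifit3, an antiviral gene, was at 2.5, 2.99 and 3.42 FPKM in the WT libraries of day 0 and 0.0248, 0.0841 and 0.0836 in those of day 2. In KO Ifit3 was at 63.7, 61 and 60.97 on day 0 and 0.358, 0.542 and 0.415 on day 2. KO was the higher on both days, and the interaction stayed negative (-3.56, against -2.62 for the 0.1 pseudocount and -1.72 for reads). For Mx1 the sign turned, from -2.43 to 1.66, and Oas2 went from -2.94 to -0.27, not called. Mx1 was not alone in this. Xaf1 turned from -1.33 to 1.24, called on both scales. Among others, Oas1a went from -1.69 to 1.06 and Gbp3 from -2.06 to 0.59, neither called in the fit on reads. Bst2, well above the floor in all libraries, went from 68.7 ± 3.65 to 9.46 ± 0.738 FPKM in WT and from 534 ± 7.59 to 94.6 ± 5.06 in KO, close falls with an interaction of 0.25. Other members with every group mean above 1 FPKM also kept their sign on each scale, in both directions. In the same order of scales Usp18 had -1.84, -1.92 and -1.92, and Irf9 -0.94, -0.88 and -0.88. Trim30a had 1.37, 1.83 and 1.895, and Ddx58 0.32, 0.47 and 0.49.

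**Figure D4:**
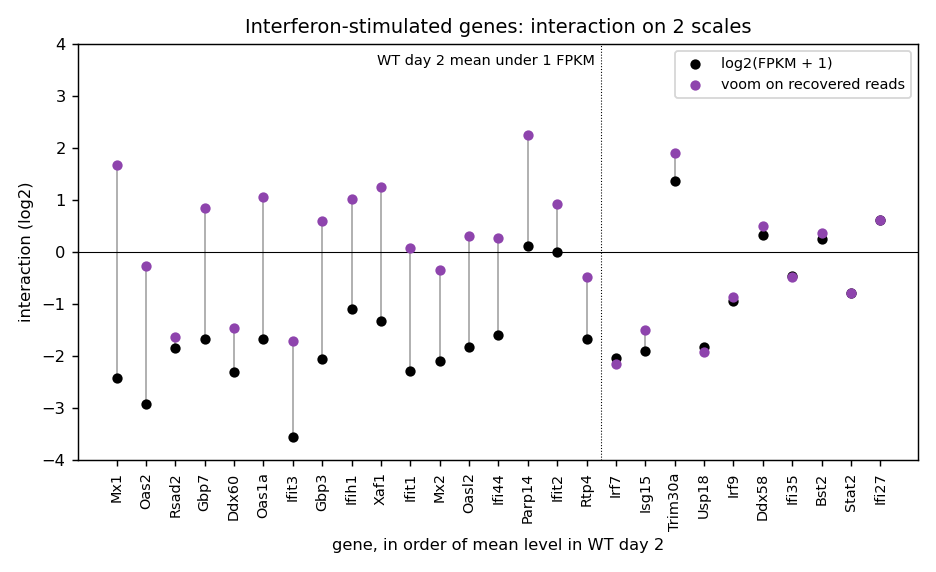
Interaction (y axis, log2) of interferon-stimulated genes (1 of the 28 is not shown), ordered by their mean level in WT at day 2 (x axis), on log2(FPKM + 1) in black and in the fit on recovered reads in purple. Left of the dotted line, where 17 genes had a WT day 2 mean under 1 FPKM, the 2 scales mostly part, and right of it they lie closer.

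A motif was looked for in interferon promoters as well. The interferon response element, read as GAAA, any 2 bases and GAAA again, was in 65.0% of the 20 genes of the list with a promoter and in 3.61% of all. In the 250 bases before the Ifit3 start (chr19:34583279-34583528, plus strand, GRCm38.p6) capitals mark its 2 matches, both on the minus strand.
Ifit3: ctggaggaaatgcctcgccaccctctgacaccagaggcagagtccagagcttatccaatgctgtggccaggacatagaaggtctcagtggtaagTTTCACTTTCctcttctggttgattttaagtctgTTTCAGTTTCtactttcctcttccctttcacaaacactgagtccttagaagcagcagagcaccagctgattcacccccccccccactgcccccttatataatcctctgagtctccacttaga

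Stress genes split. ATF4 and unfolded protein response genes had a positive interaction in 4 and a negative one in 15 of 20 (median -0.43). The amino acid arm was negative, with Atf4 going from 205 ± 3.1 to 283 ± 3.53 FPKM in WT and from 203 ± 2.66 to 138 ± 3.99 in KO (interaction -1.01, SE 0.03, adjusted p = 9.63e-11). Trib3, one of its targets, went from 95.8 ± 3.28 to 165 ± 1.06 FPKM in WT and from 104 ± 6.1 to 38.9 ± 1.85 in KO (interaction -2.18, SE 0.06, adjusted p = 2.67e-11). Chac1, another target, had -2.85. Among chaperones of the endoplasmic reticulum, Hspa5 (BiP) went from 812 ± 7.79 to 747 ± 7.83 FPKM in WT and from 683 ± 8.2 to 1630 ± 29.2 in KO (interaction 1.37, SE 0.03, adjusted p = 2.07e-12). Sdf2l1 and Hsp90b1 were positive as well, at 2.07 and 1.09, while Dnajb9 was negative at -2.17. Heat shock genes had a positive interaction in 11 and a negative one in 2 of 15 (median 0.55), and the called negative members were Hspd1 (-1.24) and Hspe1 (-0.74), which encode the mitochondrial chaperonin. Hsp90aa1 had -2.29, not called, and was the other called negative member at -3.94 without WT day 0 replicate 3. Oxidative stress genes had a positive interaction in 9 and a negative one in 7 of 20 (median 0.05, and -0.01 after TPM scaling). Gclc, of glutathione synthesis, went from 36.4 ± 0.659 to 32.4 ± 1.35 FPKM in WT and from 14.6 ± 0.332 to 70.5 ± 1.27 in KO (interaction 2.36, SE 0.05, adjusted p = 1.28e-12). Sod2, the mitochondrial superoxide dismutase, went from 20.9 ± 0.442 to 80.5 ± 0.875 FPKM in WT and from 15.5 ± 0.748 to 24.5 ± 0.273 in KO (interaction -1.27, SE 0.05, adjusted p = 2.47e-10).

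Differences in the m6A machinery were mostly under 2-fold. Writers had a positive interaction in 5 and a negative one in 3 of 11. The catalytic gene Mettl3 was at 22.5, 23.3 and 22.3 FPKM in the WT libraries of day 0 and 18.5, 18 and 17.4 in those of day 2. In KO Mettl3 was at 13.9, 14.1 and 14.6 on day 0 and 14.3, 12.9 and 13.2 on day 2. It fell in WT, while the KO libraries of the 2 days overlapped (interaction 0.25, SE 0.06, adjusted p = 0.00236). Its partner Mettl14 had -0.30 and the adaptor Wtap 0.26. Rbm15b, which guides the complex, went from 30.5 ± 0.921 to 19.3 ± 0.173 FPKM in WT and from 27.4 ± 0.691 to 36.3 ± 1.64 in KO (interaction 1.02, SE 0.05, adjusted p = 3.78e-09). Of the erasers, Fto was at 22.96, 22.1 and 20.97 FPKM in the WT libraries of day 0 and 23.9, 23.4 and 23.4 in those of day 2. In KO Fto was at 54.3, 55.2 and 55.96 on day 0 and 35.5, 36.1 and 36.6 on day 2. KO was far above at day 0 and closer at day 2, while WT rose slightly (interaction -0.70, SE 0.05, adjusted p = 4.18e-08). Alkbh5 went from 43.6 ± 1.13 to 29.5 ± 1.2 FPKM in WT and from 43.4 ± 1.01 to 37.9 ± 0.43 in KO (interaction 0.36, SE 0.05, adjusted p = 2.06e-05). Readers had a positive interaction in 9 and a negative one in 1 of 12 (median 0.35), and Igf2bp3 went from 36.7 ± 1.1 to 19.4 ± 0.162 FPKM in WT and from 16.2 ± 0.507 to 25.7 ± 1.18 in KO (interaction 1.52, SE 0.05, adjusted p = 1.53e-10). Ythdf2 went from 32.3 ± 1.21 to 24.5 ± 0.94 FPKM in WT and from 15.9 ± 0.869 to 21.6 ± 1.52 in KO (interaction 0.80, SE 0.08, adjusted p = 1.64e-06). Of Zfp217 and its repressor partners the interaction was positive for 8 and negative for 5 of 15. Ezh2, the histone methyltransferase of Polycomb, went from 55.6 ± 2.08 to 36.7 ± 1.03 FPKM in WT and from 9.59 ± 0.246 to 27.3 ± 1.93 in KO (interaction 2.00, SE 0.07, adjusted p = 1.05e-10). The corepressor gene Ctbp2 went from 47.1 ± 2.01 to 20.8 ± 1.14 FPKM in WT and from 28.7 ± 1.38 to 26.9 ± 1.44 in KO (interaction 1.05, SE 0.07, adjusted p = 9.42e-08). The demethylase gene Kdm1a and the corepressor gene Rcor1 had 0.30 and 0.31.

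**Figure D5:**
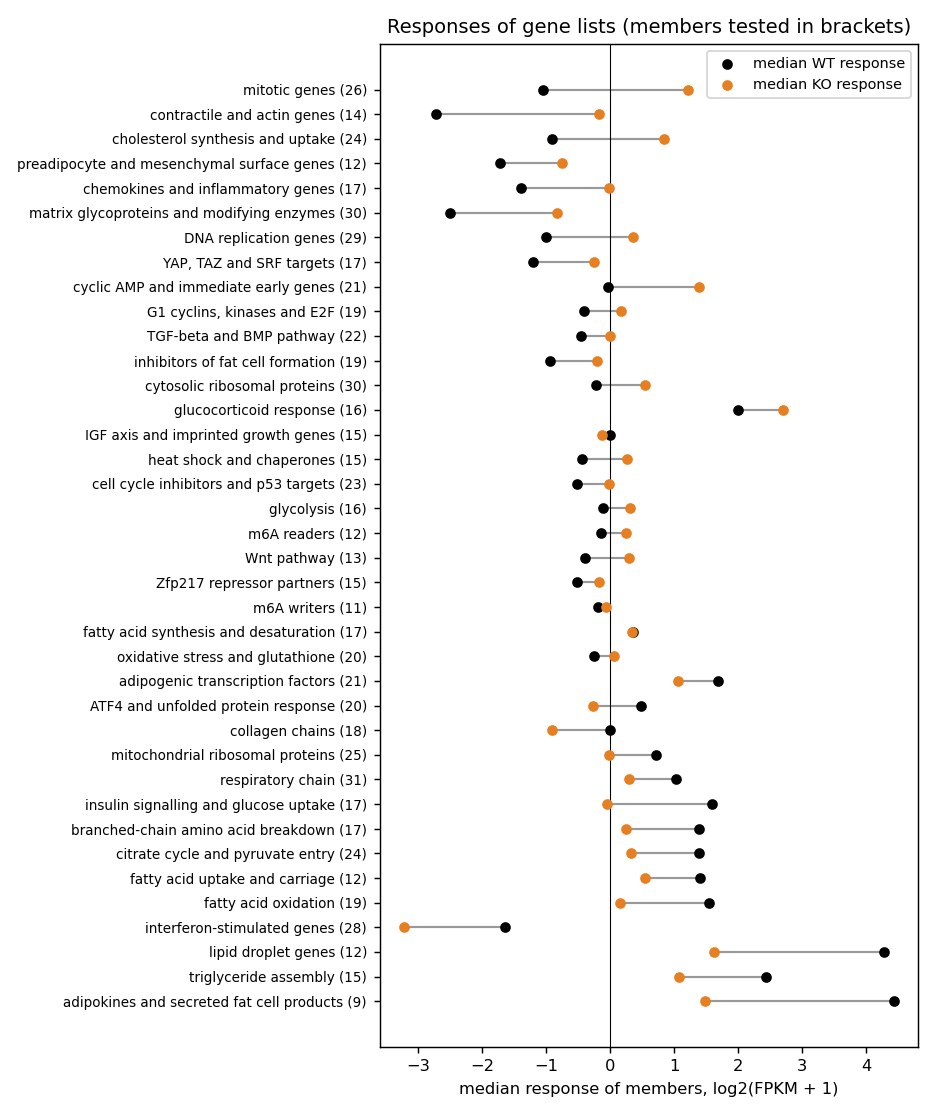
Median WT response (black) and median KO response (orange) of gene lists, in log2(FPKM + 1), day 2 minus day 0 (x axis), with the number of tested members in brackets (y axis), ordered by median interaction. Mitotic genes (WT -1.05, KO 1.21) and cholesterol genes (-0.91 and 0.84) moved in opposite directions, and lipid droplet genes rose further in WT (4.27 and 1.63). The order of the interferon list holds on this scale only.

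Opposite responses were clearest in a few genes. Vdr, the vitamin D receptor, was at 76.3, 72.3 and 67.6 FPKM in the WT libraries of day 0 and 13.9, 13.6 and 14.9 in those of day 2. In KO Vdr was at 13.97, 14.8 and 13.8 on day 0 and 169, 165 and 161 on day 2. The genotypes changed places between the days (interaction 5.72, SE 0.07, adjusted p = 3.15e-14). Slpi, a secreted protease inhibitor, did so too, going from 27.6 ± 1.64 to 0.807 ± 0.41 FPKM in WT and from 5.86 ± 0.627 to 23.5 ± 0.924 in KO (interaction 5.84, SE 0.19, adjusted p = 8.67e-11). Enpp2, which encodes autotaxin, was at 1.38, 1.42 and 1.31 FPKM in the WT libraries of day 0 and 10.6, 11.1 and 9.68 in those of day 2. In KO Enpp2 was at 77.9, 77.5 and 76.5 on day 0 and 9.43, 9.71 and 10 on day 2. WT rose to the level that KO fell to, and the day 2 libraries overlapped (interaction -5.14, SE 0.07, adjusted p = 6.20e-14). Cavin2, a coat protein of caveolae, was at 18.6, 17.8 and 18 FPKM in the WT libraries of day 0 and 50.7, 53.3 and 50.5 in those of day 2. In KO Cavin2 was at 61.5, 60.5 and 61.9 on day 0 and 18.4, 20.04 and 19.1 on day 2. WT rose and KO fell past each other (interaction -3.08, SE 0.05, adjusted p = 2.57e-13). The clock output gene Dbp went from 4.55 ± 0.823 to 15.2 ± 0.31 FPKM in WT and from 14.2 ± 0.874 to 2.87 ± 0.198 in KO (interaction -3.53, SE 0.13, adjusted p = 2.84e-10). The sorting receptor gene Sort1 went from 0.34 ± 0.0177 to 9.93 ± 0.157 FPKM in WT and from 4.94 ± 0.268 to 0.821 ± 0.0187 in KO (interaction -4.73, SE 0.08, adjusted p = 3.73e-13). Mir143, a microRNA gene, went from 12.1 ± 3.26 to 4.76 ± 1.15 FPKM in WT and from 6.32 ± 2.36 to 50.95 ± 6.63 in KO (interaction 4.05, SE 0.36, adjusted p = 7.47e-07). Its value is uncertain, since reads of a longer overlapping transcript can be counted there.

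A few strong responses were shared closely. The 6 genes with the largest response of one sign in both genotypes and an interaction held within 0.5 by its 95% interval were Ceacam1, Fgfr2, Tnc, Sdc3, Ifi207 and Dpt. Fgfr2, a growth factor receptor, was at 9.96, 8.34 and 9.28 FPKM in the WT libraries of day 0 and 192, 198 and 198 in those of day 2. In KO Fgfr2 was at 4.61, 4.33 and 4.75 on day 0 and 104, 105 and 103 on day 2. This was a rise in both (interaction -0.04, 95% interval -0.19 to 0.12). Ceacam1, an adhesion gene, went from 0.357 ± 0.103 to 32.4 ± 4.74 FPKM in WT and from 0.169 ± 0.0839 to 28.5 ± 0.417 in KO (interaction 0.05, -0.25 to 0.34). Dpt, the matrix gene dermatopontin, fell in both, from 55.9 ± 0.949 to 4.61 ± 0.0853 FPKM in WT and from 83.3 ± 1.74 to 7.36 ± 0.726 in KO (interaction 0.00, -0.15 to 0.16). Tnc, tenascin C, went from 25.4 ± 0.365 to 0.781 ± 0.0451 FPKM in WT and from 28.6 ± 0.569 to 0.94 ± 0.15 in KO (interaction -0.05, -0.22 to 0.13). Scaling moves these calls: after quantile normalization Dpt, Tnc, Sdc3 and Ifi207 were called, at -0.23, -0.48, -0.53 and 0.41.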

How the data were processed

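RNA-seq was made from total RNA taken with Trizol, with a NEBNext Ultra kit, in 12 libraries, per the labels' protocols. The authors deposited FPKM values for 52505 genes. TopHat2 2.0.12, Bowtie2 2.2.3 and HTSeq 0.6.1 are listed with the build mm10, with no roles, per the submitters' processing notes. Not given in the sources used here: annotation, strand setting and FPKM formula. The methylated-RNA libraries of the series were not analysed here.

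The 12961 genes whose mean reached 1 FPKM were fitted as log2(FPKM + 1) with limma 3.58.1 in R 4.3.3: 4 group means, a variance trend, 8 residual degrees of freedom, 2-sided tests, Benjamini-Hochberg adjustment over all 12961 genes and a threshold of 0.05. Every adjusted p in the text is from limma. The fit was tested on simulated data. Steps of the FPKM values gave whole reads for 100% of 30916 genes above 0 (tolerance 0.001 read), 18073746 to 23116567 per library, and limma's voom on those reads was an alternative. The others were a pseudocount of 0.1, no filter, a minimum mean of 5 FPKM, a fit without the variance trend, scaling by quantiles, TPM or median of ratios, a replicate block and each library left out.

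The comparison, gene lists and named genes were chosen with earlier results of these data known. Named by rule were Zfp217, the 10 largest interactions in each direction, the 6 largest in each direction among opposite 2-fold responses, up to 4 members of each list by smallest p and up to 2 of the other sign, 6 genes with like responses, and a short set of fat cell, cocktail, cell cycle and m6A genes. Other list members named in the text were chosen after their values were seen. Promoter sequences are from RefSeq (GRCm38.p6), matched by symbol. Results of some genes are not reported here, though they are counted in the lists.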

Additional observations from a re-analysis of the deposited data

Results flagged for a closer look

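The responses of the genotypes differed, by a test of the difference itself, for 9560 genes. Among them 12 rose at least 2-fold in WT and fell at least 2-fold in KO, and 74 did the reverse.

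The largest of these opposite responses, by rule, were negative for Enpp2 (interaction -5.14), Sort1 (-4.73), Cldn15 (-4.29), Tmem86a (-3.58), Dbp (-3.53) and Cavin2 (-3.08). They were positive for Slpi (5.84), Vdr (5.72), Ccn1 (5.34), Cda (4.14), Mir143 (4.05) and Pik3r5 (4.03). Each was tested by the interaction in limma.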

How the results depend on the processing

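Direction and call held for most of the 226 genes named by rule under each alternative run, from 221 with quantile scaling or voom to 226 with no filter or no variance trend. At a mean of at least 5 FPKM, where fewer were tested, 211 held, 1 gained a call and 0 lost one. Leaving out 1 library gave 9318 to 9401 called genes, 5137 to 5208 positive and 4169 to 4220 negative, and at least 2-fold 1653 to 1682 positive and 1118 to 1150 negative. By kind it gave 590 to 608 rises and 858 to 885 falls in WT alone, 215 to 226 rises and 152 to 173 falls in KO alone, 97 to 108 and 30 to 34 rises in both with the larger in WT or in KO, 149 to 155 and 37 to 41 such falls, 12 to 16 rises in WT with a fall in KO and 72 to 78 of the reverse. With a pseudocount of 0.1, 285 genes fell in both with the larger fall in WT, 30 rose in WT and fell in KO and 141 did the reverse, and with voom these were 318, 32 and 150. Rises in WT with a fall in KO numbered 20 with TPM and 19 with quantile scaling. At a mean of at least 5 FPKM, where fewer genes are tested, 75 fell in KO alone and 21 in both with the larger fall in KO, which was 24 with voom. Among the genes named by rule, the sign turned for Mx1 with voom (1.66), for Lyz2 with a pseudocount of 0.1 (0.25) and with voom (1.27), and for Dpt with quantile scaling (-0.23). Calls were lost for Gpat4 with TPM and median-of-ratios scaling (0.04 and 0.06), Orm1 with voom (0.68) and Oas2 with voom (-0.27). The cause was not tested. Replicate numbers did not pair the libraries (correlations of deviations from -0.055 to 0.087, with 6 of 12 libraries correlating best with their own number). With the replicate block 9486 genes were called, 9386 of them shared, and Sdc3 gained a call (-0.23, adjusted p = 0.0399). Depth limits genes near 0 FPKM, whose folds are understated on this scale.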

Other observations

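Of the tested genes, 12133 could be placed on 20 chromosomes through the RefSeq gene table. The median difference between KO and WT on a chromosome, relative to that of all genes, ran from -0.338 (chromosome 6, 597 genes) to 0.416 (chromosome 8, 674 genes) at day 0 and from -0.311 to 0.40 on the same chromosomes at day 2. The interaction ran only from -0.0522 to 0.118, the last on chromosome X (430 genes), and was -0.00196 on chromosome 6 and 0.0205 on chromosome 8. The differences on chromosomes 6 and 8 were thus of like size on both days, while that on chromosome X was 0.116 at day 0 and 0.244 at day 2.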
